A study of Mus musculus with 12 samples.

Results

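The open chromatin around 4 genes linked to follicular or non-follicular T cells, Bcl6, Prdm1, Cxcr5 and Pdcd1, was examined in regulatory T cells (Treg) with and without the transcription factor Ikaros. ATAC-seq, in which Tn5 transposase inserts sequencing adapters into accessible DNA, gave a set of 118680 open chromatin regions (OCR) for these cells in mm9. The members are all 75 regions that overlap the body of 1 of the 4 genes or the 50 kb on either side of it, 16 at Bcl6, 21 at Prdm1, 22 at Cxcr5 and 16 at Pdcd1. No accessibility value was used to choose them. Their windows also hold other genes: of the 22 regions at Cxcr5, 8 have the Cxcr5 start as their nearest start site and 10 that of Bcl9l.

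The cells were YFP+ Treg, labelled as coming from spleen and isolated by FACS. The WT group was of the genotype Foxp3-YFP-Cre. The Ikzf1-cko group was of the genotype Ikzf1-fl-Foxp3-YFP-Cre, where Cre made from the Foxp3 locus inactivates floxed Ikzf1 in Foxp3-expressing cells. Both genotypes carry the Foxp3-YFP-Cre reporter. One part of the cells was used directly ex vivo and the other was stimulated for 4 hr on plates coated with antibodies to CD3 and CD28. There were 4 groups of 3 libraries, made from 100000 cells each. The age of these mice and the exons removed from Ikzf1 are not given in the sources used here, and accessibility over Ikzf1 was not used to check the genotype labels.

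Bcl6 and Blimp-1, the product of Prdm1, are zinc finger repressors that act against each other. Bcl6 is needed for follicular helper T cells and for the follicular Treg that enter B cell follicles, whereas Blimp-1 is a hallmark of effector Treg. CXCR5 is the receptor for the chemokine CXCL13, which draws cells into the follicle, and PD-1, encoded by Pdcd1, is an inhibitory receptor that is high on follicular T cells and is induced by antigen receptor signals. In bulk libraries, more cells with an open region and a wider opening in each cell cannot be told apart.

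All 4 genes lie on the minus strand. Bcl6 spans chr16:23965138-23988938, Cxcr5 chr9:44319871-44334504 and Pdcd1 chr1:95934884-95949130. Prdm1 is annotated over chr10:44156983-44248307, and distances at Prdm1 are given from the start of its coding transcripts at 44178554. The 6 windows of 300 bases printed here come from the regions that carry the main differences between the groups or, at Prdm1, a Blimp-1 motif. Each is the central part of its region on the plus strand of mm9, and none overlaps an exon. Capitals mark matches on either strand to the Ikaros core GGGAA, the AP-1 site TGACTCA, the forkhead site GTAAACA, the TCF1/LEF1 site CTTTGA or a Blimp-1 site of 10 bases, which is seen whole in the Prdm1 window 70.8 kb upstream. None of these 5 motifs contains another.
Bcl6, 8.9 kb upstream (OCR_44744, chr16:23997658-23997957): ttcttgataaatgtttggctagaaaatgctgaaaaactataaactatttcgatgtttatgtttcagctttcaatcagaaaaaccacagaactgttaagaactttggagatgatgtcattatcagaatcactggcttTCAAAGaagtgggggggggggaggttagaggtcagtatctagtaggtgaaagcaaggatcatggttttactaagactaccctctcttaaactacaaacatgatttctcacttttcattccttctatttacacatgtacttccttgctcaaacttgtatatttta
Prdm1, intron 10.7 kb downstream (OCR_11101, chr10:44167742-44168041): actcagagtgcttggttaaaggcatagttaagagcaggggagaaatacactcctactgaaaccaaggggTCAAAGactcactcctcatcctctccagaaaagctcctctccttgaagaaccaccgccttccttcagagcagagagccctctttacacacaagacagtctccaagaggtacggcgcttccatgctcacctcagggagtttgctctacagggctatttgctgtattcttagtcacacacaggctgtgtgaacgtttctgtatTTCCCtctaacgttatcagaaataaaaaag
Prdm1, 70.8 kb upstream (OCR_11108, chr10:44249219-44249518): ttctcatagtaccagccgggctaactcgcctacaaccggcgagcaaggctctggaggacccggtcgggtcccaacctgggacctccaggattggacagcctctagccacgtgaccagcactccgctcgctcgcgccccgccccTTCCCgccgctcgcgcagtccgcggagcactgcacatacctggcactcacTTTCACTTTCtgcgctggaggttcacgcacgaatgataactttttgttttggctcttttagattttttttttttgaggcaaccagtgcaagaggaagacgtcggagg
Cxcr5, 31.3 kb downstream (OCR_112893, chr9:44303085-44303384): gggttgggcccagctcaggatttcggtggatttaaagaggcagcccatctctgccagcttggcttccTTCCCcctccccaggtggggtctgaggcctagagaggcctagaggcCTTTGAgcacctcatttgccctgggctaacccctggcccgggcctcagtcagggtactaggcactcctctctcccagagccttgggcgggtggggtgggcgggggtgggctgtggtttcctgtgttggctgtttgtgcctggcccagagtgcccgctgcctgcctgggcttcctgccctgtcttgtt
Pdcd1, intron 4.4 kb downstream (OCR_3841, chr1:95944596-95944895): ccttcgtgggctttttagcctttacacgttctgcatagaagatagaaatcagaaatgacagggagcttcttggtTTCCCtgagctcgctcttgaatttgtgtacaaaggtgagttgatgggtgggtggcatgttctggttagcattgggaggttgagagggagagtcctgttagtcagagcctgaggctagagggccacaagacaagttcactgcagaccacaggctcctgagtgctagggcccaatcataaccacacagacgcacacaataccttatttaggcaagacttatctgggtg
Pdcd1, 3.6 kb upstream (OCR_3845, chr1:95952545-95952844): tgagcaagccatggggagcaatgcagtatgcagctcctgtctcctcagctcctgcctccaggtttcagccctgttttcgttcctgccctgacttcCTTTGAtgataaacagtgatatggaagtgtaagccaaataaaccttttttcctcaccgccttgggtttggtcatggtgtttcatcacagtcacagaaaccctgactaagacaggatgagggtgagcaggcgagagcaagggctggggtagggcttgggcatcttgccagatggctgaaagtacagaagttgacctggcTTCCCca
The Bcl6 window holds a TCF1/LEF1 match and no GGGAA, and it is AT-rich, with 35.3% G and C. The Prdm1 intron, Cxcr5 and upstream Pdcd1 windows each hold 1 Ikaros core and 1 TCF1/LEF1 match, and the intronic Pdcd1 window holds 1 Ikaros core alone. The window upstream of Prdm1 holds 1 Ikaros core and 1 Blimp-1 match.

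GGGAA lies in the central 300 bases of 44 of the 75 members (58.7%), against 59% of the 118480 regions with a full window in the reference. AP-1 matches were found in 12 members (16%, against 11% of all regions), 5 of them at Prdm1, 4 at Pdcd1, 3 at Cxcr5 and 0 at Bcl6. TCF1/LEF1 matches were found in 18 members (24%, against 19.1%). The 4 members with a forkhead match (against 3.69% of all regions) all lie at Prdm1, and OCR_11108 is the only member with the Blimp-1 match, which 0.43% of all regions hold. These matches are descriptions of the letters and not binding sites.

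Libraries held between 4808916 and 15355521 counted reads, and each Ikzf1-cko library had more reads than any WT library. The stimulated WT libraries stood apart from the others. Between replicates of that group, Spearman's rho over tested regions was 0.867 to 0.896, against 0.942 to 0.985 within the other groups. The strongest 10% of regions took 34.7% to 36.7% of their reads, against 41.3% to 47% in the other groups. Results that rest on this group are therefore given with scaling by library totals and, for many of them, also after loess scaling against abundance. Loess scaling fits a trend of each library over strong and weak regions and removes it. Results without a loess value beside them rest on library totals alone. All 6 Treg and CD4 T cell markers had an open region at the start site, Foxp3, Il2ra, Ctla4, Ikzf2, Cd3e and Cd4, with medians over libraries of 12.9 to 46.8 FPKM (reads per kb of region, scaled to the counted reads of the library). Foxp3 (12.9), Cd4 (20.2), Cd3e (20.8) and Il2ra (23.0) lay below 23.4 FPKM, the median over all tested start-site regions. The Foxp3 region itself was lowest in ex vivo WT, with a mean of 6.70 FPKM there against 11.2 in ex vivo Ikzf1-cko, and its means after stimulation were 14.6 in WT and 15.7 in Ikzf1-cko. Of the B cell markers, Cd79a, Ms4a1 and Pax5 had no region at the start site, and Cd22 had a median of 6.07 FPKM. Regions were present for 1 of 4 myeloid and 1 of 2 NK markers, with medians of 7.66 and 5.39 FPKM. Both CD8 T cell markers, Cd8a and Cd8b1, had a region. Their summed level moved with genotype, with 20.7 to 24.2 FPKM in WT and 10.8 to 14.6 FPKM in Ikzf1-cko libraries ex vivo, and 20.0 to 23.4 against 14.7 to 16.1 FPKM after stimulation. The part of such cells in the results at the 4 genes was not tested.

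Of the 75 members, 60 had at least 3.6 CPM (counts scaled to a common library total) in at least 3 libraries and were tested, 11 at Bcl6, 14 at Prdm1, 21 at Cxcr5 and 14 at Pdcd1. The 15 that were not tested had 3 to 54 reads per library, and group means of 2.09 to 14.6 FPKM, against 3.97 to 98.7 FPKM for the tested members. A region was called at a Benjamini-Hochberg FDR under 0.05 over all 69957 tested regions with an absolute log2 fold change over 1, and members at that FDR with any fold change are given as a second count. Ex vivo, 0 of the 60 members passed both thresholds between genotypes by edgeR, against 4.63% of all tested regions, while 25 had an unadjusted p under 0.05 (36.1% of all tested regions). The count of called members was also 0 with DESeq2, limma, TMM and loess scaling. At the FDR alone, 12 members were higher in Ikzf1-cko and 3 lower, against 8.78% and 12.7% of all tested regions, and with loess scaling 11 and 5, against 8.13% and 7.7%. All tested regions include many weak ones, so shares are also given for the 34257 regions with at least 3.6 CPM in all 12 libraries. In a fit of those regions alone, 16% were higher and 11.5% lower ex vivo, against 20.0% and 5.0% of the members. The libraries of the genotypes did not overlap in 27 members (35.9% of all tested regions). After stimulation, 2 members were called between genotypes, both higher in Ikzf1-cko at Pdcd1. Of all tested regions, 21.3% were called, with 813 higher and 14119 lower in Ikzf1-cko. Called members numbered 4 without stimulated WT replicate 1 or stimulated Ikzf1-cko replicate 1, 5 without stimulated WT replicate 2, and 6 with DESeq2. With TMM and with loess scaling they numbered 3 each, of which 1 lay at Prdm1. At the FDR alone, 22 were higher and 7 lower in Ikzf1-cko (background 20.4% and 30.7%, or 51% in either direction), and with loess scaling these were 14 and 8, against 13.5% and 15.3%. The members' shares with library totals, 36.7% higher and 11.7% lower, were near those of the regions covered in all 12 libraries. Of these 34257 regions, 36.7% were higher and 9.86% lower, and 858 were called, 500 of them higher and 358 lower. The libraries of the genotypes did not overlap in 29 members (57.2% of all tested regions). The median log2 fold change between genotypes over all tested regions was -0.13 ex vivo and -0.11 after stimulation with library totals. With TMM scaling it was -0.02 and -0.04. Over the 34257 regions covered in all 12 libraries, the median with library totals was instead 0.04 ex vivo and 0.18 after stimulation. Over tested regions at start sites it was 0.08 and 0.18. The usual shift between genotypes thus depends on which regions are taken, and its sign turns between these sets.

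Among members at the FDR alone, the direction differed between the 4 genes, but some of the shares were near or below the background. Ex vivo, the members more accessible in Ikzf1-cko at the FDR alone were 9 of 14 at Pdcd1 (64.3%) and 3 of 11 at Bcl6 (27.3%), against 8.78% of all tested regions. Those less accessible were 2 of 21 at Cxcr5 (9.52%) and 1 of 14 at Prdm1 (7.14%), below the 12.7% of all tested regions. These ex vivo counts moved with the scaling: loess scaling gave 8 at Pdcd1 and 2 at Bcl6 higher, 1 at Cxcr5 lower, and 1 higher and 4 lower at Prdm1, and with DESeq2 0 were lower at Cxcr5. After stimulation, 10 of 14 members at Pdcd1 (71.4%), 7 of 11 at Bcl6 (63.6%) and 5 of 14 at Prdm1 (35.7%) were more accessible in Ikzf1-cko. The background was 20.4% of all tested regions and 36.7% of those with at least 3.6 CPM in all 12 libraries. At Cxcr5, 7 of 21 (33.3%) were less accessible, against 30.7% and 9.86%. With loess scaling the stimulated counts were 8 at Pdcd1, 4 at Bcl6 and 2 at Prdm1 higher (57.1%, 36.4% and 14.3%, against 13.5% of all tested regions). At Cxcr5 8 were lower (38.1%, against 15.3%). The median log2 fold change of the tested members after stimulation was 0.64 at Pdcd1, 0.44 at Bcl6, 0.26 at Prdm1 and -0.22 at Cxcr5.

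**Figure D1:**
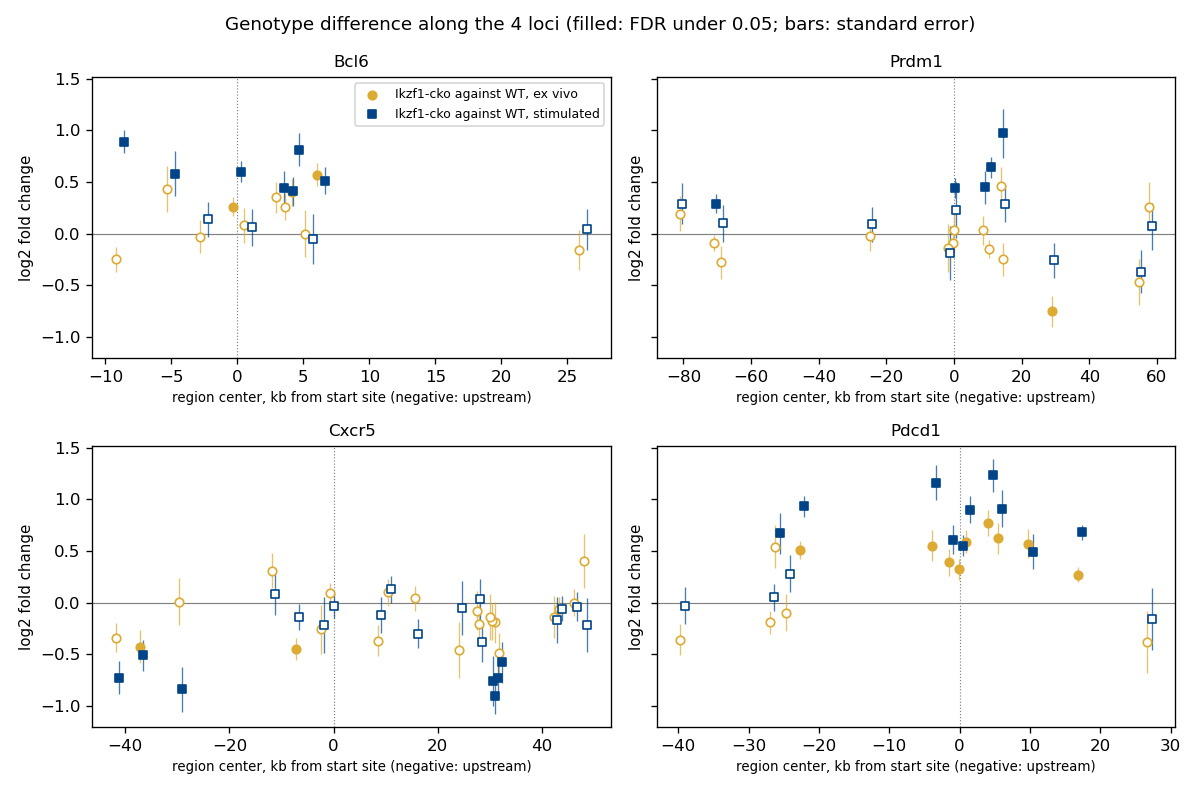
Log2 fold change of Ikzf1-cko against WT for each tested region, by the distance of its center from the start site in kb (negative: upstream). Yellow circles are ex vivo and blue squares stimulated, drawn slightly left and right of their position. Filled symbols passed FDR under 0.05 and bars are standard errors. All filled symbols lie above 0 at Bcl6 and Pdcd1 and below 0 at Cxcr5, with the highest, 1.23, at Pdcd1.

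At the Bcl6 start site (OCR_44741, chr16:23988555-23989293), accessibility was higher in Ikzf1-cko than in WT Treg both ex vivo and after stimulation. It measured 35.4, 36.6 and 39.8 FPKM in the ex vivo WT libraries and 44.0, 46.2 and 44.0 FPKM in ex vivo Ikzf1-cko. After stimulation it measured 30.0, 31.4 and 30.4 FPKM in WT and 41.8, 51.4 and 46.3 FPKM in Ikzf1-cko. The genotypes did not overlap in either state, and the group means rose from stimulated to ex vivo WT and on to the 2 Ikzf1-cko groups, which overlapped each other. The log2 difference between genotypes was 0.26 (standard error 0.09, adjusted p = 0.046) ex vivo and 0.60 (standard error 0.10, adjusted p = 2.1e-05) after stimulation. In WT Treg, stimulation lowered the region by 0.29 on the log2 scale (-0.29, standard error 0.11, adjusted p = 0.027), whereas in Ikzf1-cko the difference was 0.06 (95% interval -0.11 to 0.22). With loess scaling the ex vivo difference was 0.16 (adjusted p = 0.20), the stimulated difference 0.29 (adjusted p = 0.017) and the WT response -0.05 (adjusted p = 0.73). The ex vivo difference missed the threshold without WT ex vivo replicate 1 or 2 (adjusted p = 0.15 each), Ikzf1-cko ex vivo replicate 1 (0.079) or 2 (0.15), or stimulated Ikzf1-cko replicate 3 (0.053). The WT response missed it without WT ex vivo replicate 3 (adjusted p = 0.13) or stimulated WT replicate 1 (0.098) or 3 (0.074). Of the 11941 tested regions at start sites, 16.9% were higher in Ikzf1-cko ex vivo and 5.59% lower, and 43.5% were higher and 15.5% lower after stimulation. With loess scaling these shares were 5.97% and 5.75% ex vivo and turned to 9.21% higher and 24.5% lower after stimulation.

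The largest response to stimulation among the 60 tested members was 8.9 kb upstream of Bcl6, in the intergenic region OCR_44744 (chr16:23997195-23998419), whose center is printed above. It measured 13.8, 13.7 and 13.8 FPKM in ex vivo WT, 11.5, 12.5 and 10.5 FPKM in ex vivo Ikzf1-cko and 14.8, 17.0 and 12.2 FPKM in stimulated WT. In stimulated Ikzf1-cko it measured 27.6, 28.5 and 25.9 FPKM, so each of these libraries exceeded every other library. Stimulation opened this region in Ikzf1-cko Treg, with a log2 change of 1.24 (standard error 0.10, adjusted p = 2.9e-10). In WT Treg the change was 0.10 (95% interval -0.15 to 0.35), or 0.34 with loess scaling (adjusted p = 0.029). The responses of the 2 genotypes differed by 1.14 (standard error 0.16, adjusted p = 1.2e-04 for the interaction), or by 0.94 with loess scaling (adjusted p = 0.0014). It was the only member called in the Ikzf1-cko response and in the interaction, against 3.65% and 1.98% of all tested regions. With loess scaling the interaction stayed under a log2 difference of 1. Between genotypes the log2 difference was 0.89 (standard error 0.11, adjusted p = 5.0e-07) after stimulation and -0.25 (adjusted p = 0.12) ex vivo, and each call held without any 1 of the 12 libraries.

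Within the Bcl6 gene, 7 of 8 regions were tested. Of these, 3 were higher in Ikzf1-cko ex vivo and 5 after stimulation (2 in each state with loess scaling). In the intron, OCR_44735 (chr16:23982212-23983067) measured 20.7, 18.9 and 22.2 FPKM in ex vivo WT and 30.7, 31.0 and 29.9 FPKM in ex vivo Ikzf1-cko. Its levels after stimulation were 14.1, 18.4 and 15.3 FPKM in WT and 22.0, 24.7 and 21.1 FPKM in Ikzf1-cko. The genotypes did not overlap in either state, with log2 differences of 0.57 (standard error 0.11, adjusted p = 3.1e-04) ex vivo and 0.51 (standard error 0.13, adjusted p = 0.0013) after stimulation, or 0.26 with loess scaling (adjusted p = 0.098). Stimulation lowered it in Ikzf1-cko (-0.44, adjusted p = 0.0018), and in WT (-0.37, adjusted p = 0.021) except without WT ex vivo replicate 3 (adjusted p = 0.11) or stimulated WT replicate 1 (0.16) or 3 (0.075), and not with loess scaling (-0.13, adjusted p = 0.45). In OCR_44737 (chr16:23984342-23984710), also intronic, the level was 28.2, 25.1 and 26.8 FPKM in ex vivo WT, 38.3, 34.7 and 32.2 FPKM in ex vivo Ikzf1-cko, 16.6, 19.3 and 21.4 FPKM in stimulated WT and 32.6, 32.5 and 34.5 FPKM in stimulated Ikzf1-cko. All Ikzf1-cko libraries were above all WT libraries. Its genotype difference after stimulation was 0.81 (standard error 0.16, adjusted p = 1.0e-04), or 0.71 with loess scaling (adjusted p = 7.6e-04). Ex vivo it was 0.40 (adjusted p = 0.028), which missed the threshold without WT ex vivo replicate 2 (adjusted p = 0.12) or 3 (0.063) or Ikzf1-cko ex vivo replicate 1 (0.13) or 2 (0.068).

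**Figure D2:**
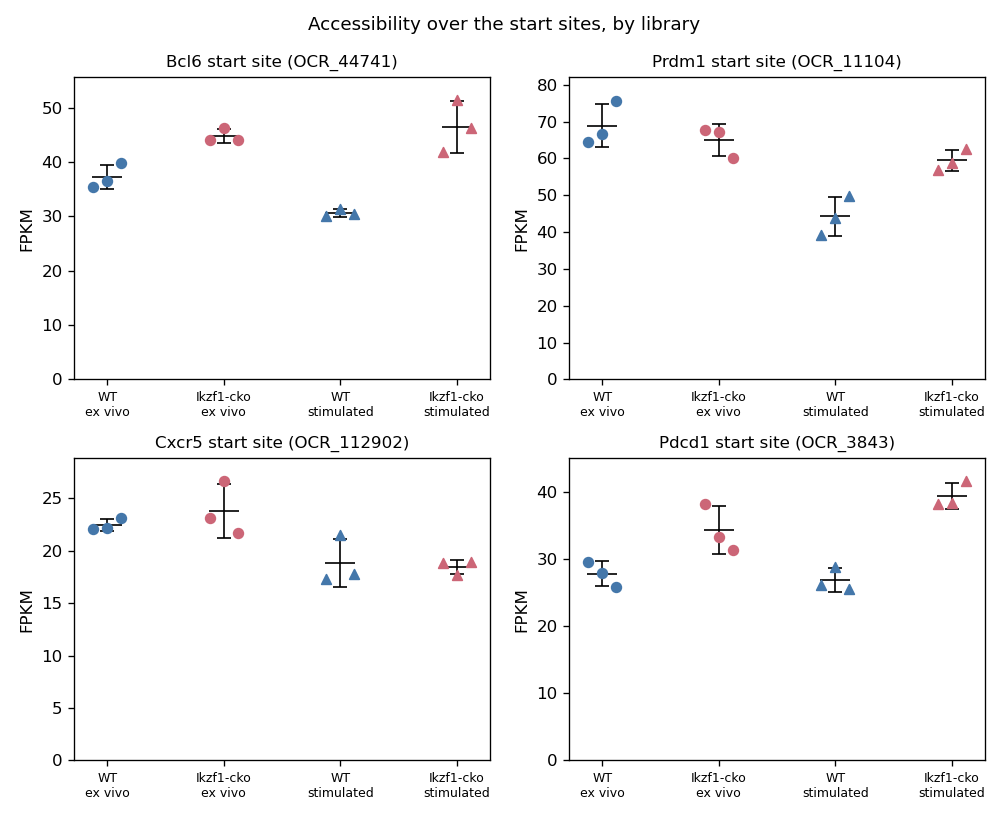
Accessibility in FPKM of the region over the start site of each gene in the 12 libraries. Blue marks WT, red Ikzf1-cko, circles ex vivo and triangles stimulated libraries, and black bars are the mean ± SD of 3 libraries. At Prdm1 the stimulated WT libraries (39.2 to 49.9 FPKM) lie below all others, and at Cxcr5 the genotypes overlap in both states.

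At the Prdm1 start site (OCR_11104, chr10:44178272-44179005), which had the highest level of the 4 start sites, accessibility fell on stimulation in WT Treg, and the genotypes overlapped ex vivo. It measured 64.5, 66.6 and 75.6 FPKM in ex vivo WT, 67.8, 67.2 and 60.1 FPKM in ex vivo Ikzf1-cko, 39.2, 43.8 and 49.9 FPKM in stimulated WT and 56.9, 58.9 and 62.6 FPKM in stimulated Ikzf1-cko. The stimulated WT libraries were below all others, and the neighboring pairs in the order above them, stimulated and ex vivo Ikzf1-cko, and ex vivo Ikzf1-cko and WT, overlapped. The WT response was -0.65 on the log2 scale (standard error 0.10, adjusted p = 5.1e-06), or -0.41 with loess scaling (adjusted p = 4.0e-04), and the Ikzf1-cko response -0.13 (95% interval -0.29 to 0.03). The responses differed by 0.52 (standard error 0.13, adjusted p = 0.011), which missed the threshold without WT ex vivo replicate 3 or stimulated WT replicate 1 (adjusted p = 0.060 each), with TMM (adjusted p = 0.065) and with loess scaling (0.30, adjusted p = 0.12). After stimulation the genotype difference was 0.44 (standard error 0.10, adjusted p = 4.5e-04), or 0.09 with loess scaling (adjusted p = 0.47). Ex vivo it was -0.09 (95% interval -0.25 to 0.08), or -0.21 with loess scaling (adjusted p = 0.038).

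In the intron 10.7 kb downstream of this start, OCR_11101 (chr10:44167165-44168618) went in opposite directions in the 2 genotypes. It measured 23.3, 23.1 and 26.6 FPKM in ex vivo WT and 17.1, 17.8 and 18.4 FPKM in stimulated WT. In Ikzf1-cko it measured 23.1, 22.3 and 20.8 FPKM ex vivo and 26.4, 28.3 and 28.3 FPKM after stimulation. In each genotype the stimulated libraries did not overlap the ex vivo ones, lower in WT and higher in Ikzf1-cko. The log2 change was -0.46 (standard error 0.10, adjusted p = 4.7e-04) in WT and 0.32 (standard error 0.08, adjusted p = 0.0041) in Ikzf1-cko. With loess scaling these were -0.22 (adjusted p = 0.057) and 0.35 (adjusted p = 4.2e-04), and with TMM the Ikzf1-cko response was 0.26 (adjusted p = 0.057). The interaction was 0.79 (standard error 0.13, adjusted p = 4.1e-04), 0.57 with loess scaling (adjusted p = 0.0057) and 0.74 with TMM (adjusted p = 0.0069), and it passed without any 1 of the 12 libraries. The stimulated genotypes differed by 0.64 (standard error 0.10, adjusted p = 4.2e-06), or by 0.31 with loess scaling (adjusted p = 0.0055).

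A weaker intronic region, OCR_11100 (chr10:44164224-44164559), 14.2 kb downstream and named after its values were seen, had the largest log2 difference between stimulated genotypes at Prdm1. It measured 10.9, 17.7 and 15.2 FPKM in ex vivo WT, 20.0, 22.1 and 19.6 FPKM in ex vivo Ikzf1-cko, 6.89, 8.70 and 8.05 FPKM in stimulated WT and 12.6, 16.1 and 17.1 FPKM in stimulated Ikzf1-cko, from 13 to 103 reads per library. The genotypes did not overlap in either state, and stimulated WT was below all other libraries. The difference was 0.97 (standard error 0.24, adjusted p = 0.0014) after stimulation and 0.46 (adjusted p = 0.071) ex vivo, or 1.14 and 0.60 with loess scaling (adjusted p = 7.8e-04 and 0.025). Stimulation lowered it in WT by 0.93 on the log2 scale (-0.93, adjusted p = 0.0035).

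The member with the smallest p ex vivo at Prdm1 was OCR_11097, an intergenic region 29.2 kb downstream (chr10:44148893-44149763), and it was less accessible in Ikzf1-cko. Its levels were 13.7, 12.2 and 13.8 FPKM in ex vivo WT, 7.48, 9.01 and 6.87 FPKM in ex vivo Ikzf1-cko, 9.49, 8.81 and 11 FPKM in stimulated WT and 8.22, 7.95 and 8.11 FPKM in stimulated Ikzf1-cko. The WT libraries were above the Ikzf1-cko libraries in both states. The difference was -0.75 (standard error 0.15, adjusted p = 3.8e-04) ex vivo and -0.26 (95% interval -0.59 to 0.07) after stimulation, and the interaction of 0.49 did not pass (adjusted p = 0.17). Stimulation lowered it in WT (-0.44, adjusted p = 0.027), except with loess scaling (-0.30, adjusted p = 0.17) or without WT ex vivo replicate 1 (adjusted p = 0.056) or 3 (0.092) or stimulated WT replicate 1 (0.087) or 2 (0.10). Farther away, OCR_11108 (chr10:44248797-44249940) lies just upstream of the annotated 5′ end of the gene and holds the Blimp-1 match. It measured 37.0, 35.8 and 37.8 FPKM in ex vivo WT, 36.5, 33.9 and 33.2 FPKM in ex vivo Ikzf1-cko, 27.8, 25.9 and 28.5 FPKM in stimulated WT and 33.0, 33.0 and 34.5 FPKM in stimulated Ikzf1-cko. Only stimulated WT lay apart from the other groups, with a WT response of -0.43 (standard error 0.09, adjusted p = 3.7e-04), or -0.18 with loess scaling (adjusted p = 0.095). The genotype difference after stimulation was 0.29 (adjusted p = 0.0069), but -0.05 with loess scaling (adjusted p = 0.71).

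Across the 14 tested members at Prdm1, 8 fell and 0 rose on stimulation in WT Treg, of which 3 fell with loess scaling, and 1 rose and 1 fell in Ikzf1-cko. The background for the WT response at the FDR alone was 26.9% higher and 20.7% lower, or 47.6% in either direction, and for the Ikzf1-cko response 12% higher and 11.5% lower. Across all 60 members, 6 rose and 19 fell in WT (7 and 7 with loess scaling, against 16.8% and 15.7% of all tested regions), and 8 rose and 8 fell in Ikzf1-cko (6 and 10 with TMM). The WT shares of the members, 10.0% and 31.7%, were near those of the 34257 regions with at least 3.6 CPM in all 12 libraries. Of these regions, 10.7% rose, 35.7% fell and 1239 were called in WT, and 14.5% rose and 20.5% fell in Ikzf1-cko. The libraries of the 2 states did not overlap in 28 members in WT (54% of all tested regions) and in 22 in Ikzf1-cko (37.8%). Members past both thresholds numbered 1 in WT, at Cxcr5, against 20% of all tested regions, and 1 in Ikzf1-cko, at Bcl6. The WT count was 2 without WT ex vivo replicate 1 or 2 or stimulated WT replicate 1 or 3, and that in Ikzf1-cko was 2 when its ex vivo replicate 3 was left out. For the interaction, 5 members (8.33%) were higher in Ikzf1-cko and 0 lower at the FDR alone, 3 of them at Prdm1, 1 at Bcl6 and 1 at Pdcd1. These shares were 5.66% and 1.82% of all tested regions, and 14.7% and 1.93% of those with at least 3.6 CPM in all 12 libraries. Without WT ex vivo replicate 3 or stimulated WT replicate 1 the count of 5 was 3, and it was 2 with TMM and 2 with loess scaling (2.04% of all tested regions).

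**Figure D3:**
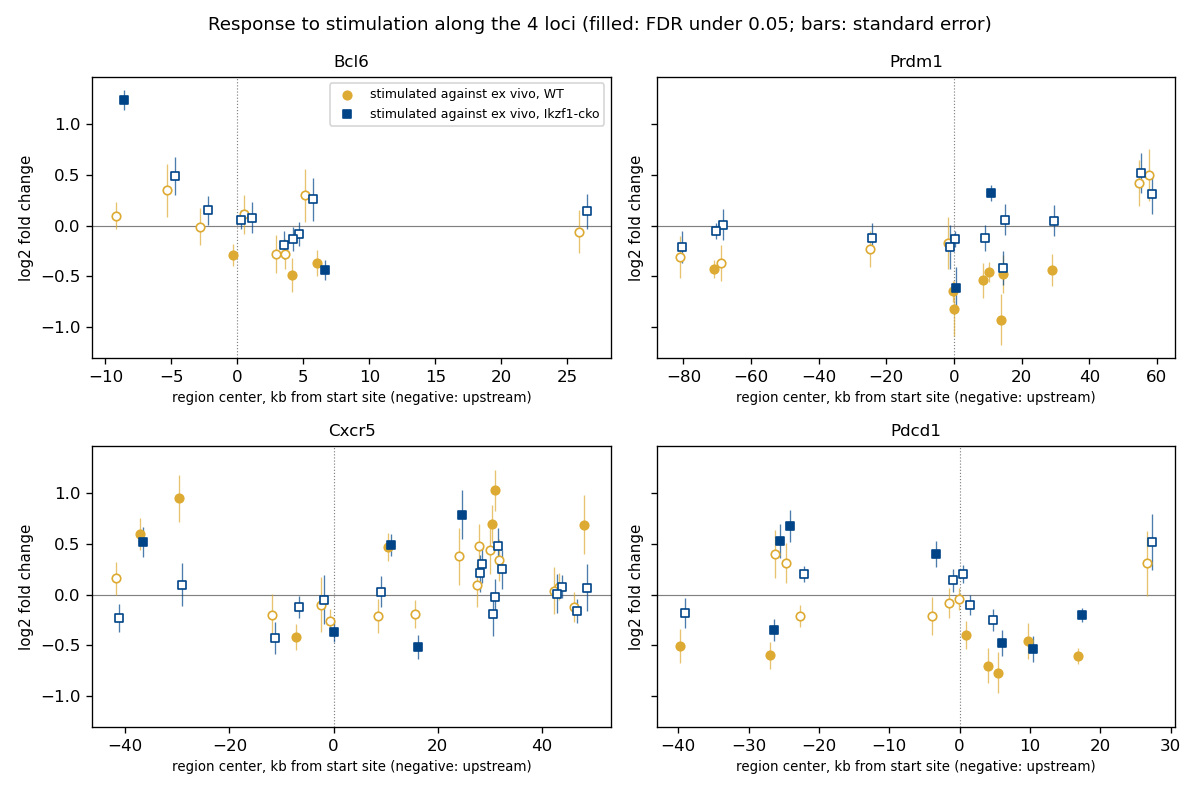
Log2 fold change of stimulated against ex vivo libraries for each tested region, by the distance of its center from the start site in kb (negative: upstream). Yellow circles are WT and blue squares Ikzf1-cko, drawn slightly left and right of their position. Filled symbols passed FDR under 0.05 and bars are standard errors. The blue square at 1.24 is the region upstream of Bcl6, and all filled yellow circles at Bcl6, Prdm1 and Pdcd1 lie below 0.

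The Cxcr5 start site (OCR_112902, chr9:44334302-44335365) had overlapping libraries of the 2 genotypes in both states. It measured 22.1, 22.2 and 23.1 FPKM in ex vivo WT, 23.1, 26.7 and 21.7 FPKM in ex vivo Ikzf1-cko, 17.3, 21.5 and 17.8 FPKM in stimulated WT and 18.8, 17.7 and 18.9 FPKM in stimulated Ikzf1-cko. In each genotype the stimulated libraries were below the ex vivo ones. The genotype difference was 0.09 (95% interval -0.12 to 0.29) ex vivo and -0.03 (95% interval -0.26 to 0.20) after stimulation, or -0.30 with loess scaling (adjusted p = 0.036). Stimulation lowered the start site in Ikzf1-cko (-0.37, standard error 0.10, adjusted p = 0.0071), except without Ikzf1-cko ex vivo replicate 2 (adjusted p = 0.081). In WT the change was -0.26 (adjusted p = 0.080), which passed without stimulated WT replicate 2 (-0.36, adjusted p = 0.033).

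Away from the gene, a group of neighboring intergenic regions 30.3 to 32.0 kb downstream of Cxcr5, nearest to the start of Bcl9l, was more accessible in stimulated WT than in stimulated Ikzf1-cko Treg. Of these 4 regions, 0 were called between stimulated genotypes, and 2 missed the FDR with loess scaling, OCR_112892 and OCR_112895. OCR_112892 had a log2 difference between stimulated genotypes of -0.58 (adjusted p = 0.017), or -0.39 with loess scaling (adjusted p = 0.15). That of OCR_112895 was -0.76 (adjusted p = 0.0078), or -0.44 with loess scaling (adjusted p = 0.16). The first also missed the threshold without stimulated WT replicate 1 (adjusted p = 0.081) or 2 (0.088), and the second without stimulated WT replicate 3 (0.063). The region with the smallest p of the 4, OCR_112894 (chr9:44303622-44304060), measured 12.3, 16.9 and 14.8 FPKM in ex vivo WT, 12.3, 12.7 and 14.6 FPKM in ex vivo Ikzf1-cko, 20.0, 31.6 and 20.8 FPKM in stimulated WT and 13.8, 13.2 and 11.9 FPKM in stimulated Ikzf1-cko. Stimulated WT was above the other 3 groups, which overlapped. The difference between stimulated genotypes was -0.90 (standard error 0.18, adjusted p = 1.9e-04), or -0.85 with loess scaling (adjusted p = 6.6e-04). The WT response was 0.70 (adjusted p = 0.0033), or 0.45 without stimulated WT replicate 2, the highest library (adjusted p = 0.073). The neighboring OCR_112893 (chr9:44302925-44303543), printed above, was the 1 member past both thresholds in the WT response. It measured 8.70, 9.42 and 10.3 FPKM ex vivo and 18.7, 23.9 and 15.8 FPKM after stimulation in WT, and 6.73, 7.40 and 11.5 FPKM ex vivo and 13.3, 11.8 and 10.3 FPKM after stimulation in Ikzf1-cko. The WT states did not overlap, with a log2 change of 1.03 (standard error 0.20, adjusted p = 1.7e-04), or 1.13 with loess scaling (adjusted p = 5.4e-05), and the Ikzf1-cko states did, with a change of 0.48 (adjusted p = 0.052). The responses of the genotypes in these regions were not shown to differ, since the interaction was -0.54 (adjusted p = 0.22) in OCR_112893 and -0.72 (adjusted p = 0.079) in OCR_112894.

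The other 3 members lower in stimulated Ikzf1-cko, OCR_112906, OCR_112907 and OCR_112908, lay 29.4 to 41.5 kb upstream, with log2 differences of -0.84 (adjusted p = 0.0017), -0.51 (adjusted p = 0.0061) and -0.73 (adjusted p = 3.3e-04), or -0.72, -0.53 and -0.80 with loess scaling. The first 2 rose on stimulation in WT, by 0.95 (adjusted p = 0.0014) and 0.60 (adjusted p = 0.0032).

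Of the 3 regions over Cxcr5 itself, 0 differed between genotypes in either state at the FDR with library totals, and 1, the start site, was lower in stimulated Ikzf1-cko with loess scaling. In the intron, OCR_112900 (chr9:44323229-44324356) measured 11.8, 14.4 and 15.0 FPKM in ex vivo WT, 14.4, 15.6 and 14.9 FPKM in ex vivo Ikzf1-cko, 17.0, 24.6 and 16.0 FPKM in stimulated WT and 20.7, 22.0 and 20.6 FPKM in stimulated Ikzf1-cko. Both genotypes rose on stimulation, by 0.47 (adjusted p = 0.0065) in WT and 0.49 (adjusted p = 0.0019) in Ikzf1-cko, and the WT response missed the threshold without stimulated WT replicate 2 (0.25, adjusted p = 0.16). The interaction was 0.03 (95% interval -0.33 to 0.38). Upstream by 6.9 kb, the intergenic OCR_112904 (chr9:44340996-44341861) measured 22.2, 21.6 and 22.2 FPKM in ex vivo WT, 16.5, 16.1 and 15.7 FPKM in ex vivo Ikzf1-cko, 14.3, 18.1 and 16.8 FPKM in stimulated WT and 14.4, 14.0 and 16.0 FPKM in stimulated Ikzf1-cko. The ex vivo WT libraries were above all others. The genotype difference was -0.45 (standard error 0.11, adjusted p = 0.0050) ex vivo and -0.14 (adjusted p = 0.39) after stimulation, and the WT response was -0.42 (adjusted p = 0.0076), but -0.33 without stimulated WT replicate 1 (adjusted p = 0.084) and -0.19 with loess scaling (adjusted p = 0.25). OCR_112899 (chr9:44317891-44319171), over an exon of the neighboring gene Bcl9l, fell on stimulation in Ikzf1-cko (from 14.9, 16.5 and 16.7 to 12.5, 9.61 and 11.3 FPKM, log2 change -0.52, adjusted p = 0.0014). In WT it measured 15.5, 16.4 and 15.0 FPKM ex vivo and 10.8, 16.0 and 14.4 FPKM after stimulation, which overlapped.

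**Figure D4:**
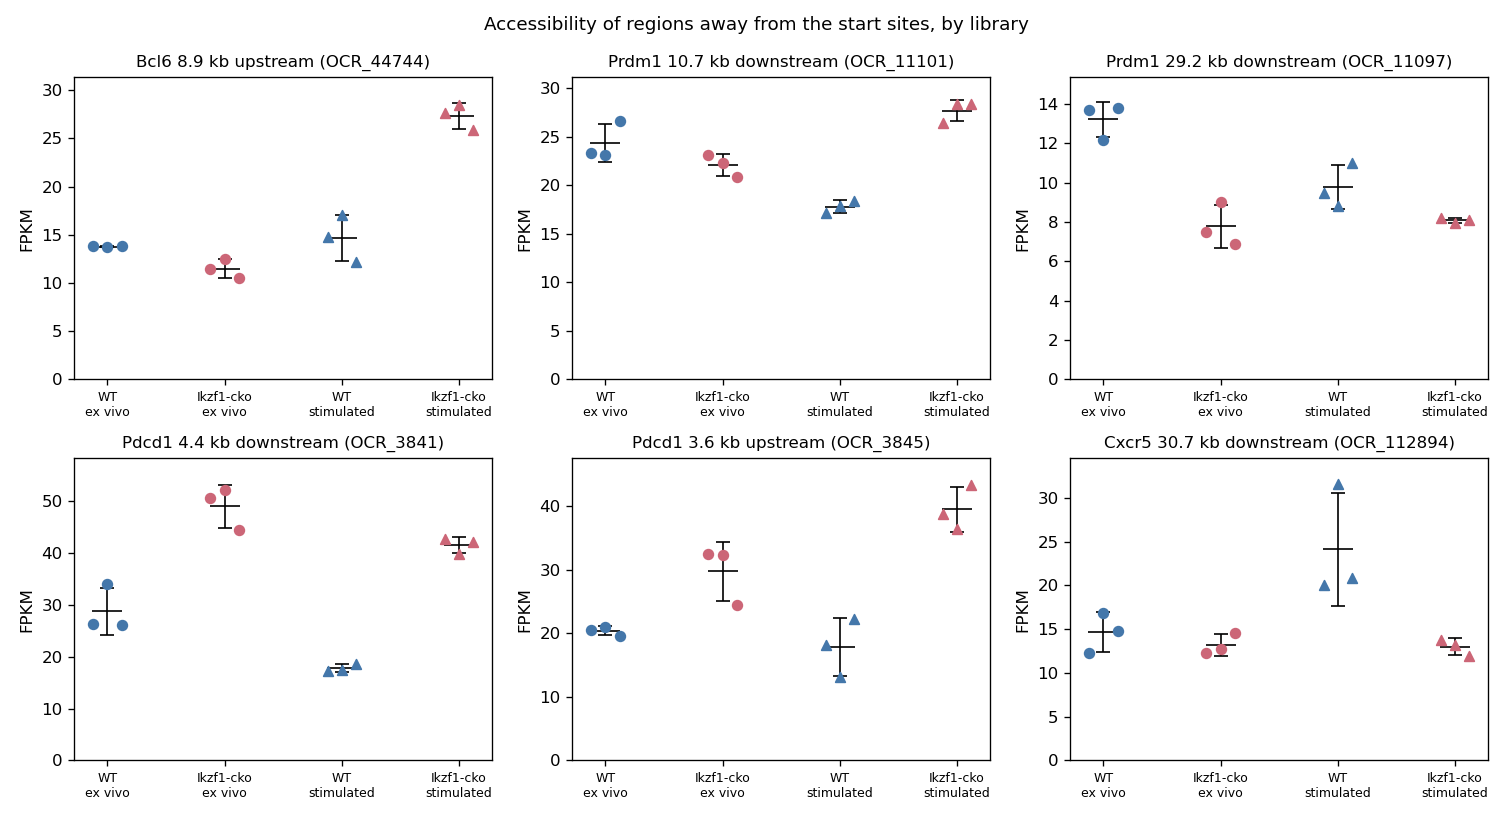
Accessibility in FPKM of 6 regions away from the start sites in the 12 libraries. Blue marks WT, red Ikzf1-cko, circles ex vivo and triangles stimulated libraries, and black bars are the mean ± SD of 3 libraries. Stimulated Ikzf1-cko libraries (25.9 to 28.5 FPKM) stand above all others 8.9 kb upstream of Bcl6, and stimulated WT libraries (20.0 to 31.6 FPKM) stand above all others 30.7 kb downstream of Cxcr5.

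Pdcd1 had the most members that differed between genotypes, and all of them were more accessible in Ikzf1-cko. At its start site (OCR_3843, chr1:95948509-95949412), the level was 29.6, 28.0 and 25.9 FPKM in ex vivo WT, 38.3, 33.3 and 31.4 FPKM in ex vivo Ikzf1-cko, 26.2, 28.9 and 25.5 FPKM in stimulated WT and 38.3, 38.4 and 41.7 FPKM in stimulated Ikzf1-cko. All Ikzf1-cko libraries were above all WT libraries, and the 2 states of each genotype overlapped. The log2 difference between genotypes was 0.32 (standard error 0.10, adjusted p = 0.019) ex vivo and 0.55 (standard error 0.10, adjusted p = 7.1e-05) after stimulation. With loess scaling these were 0.23 (adjusted p = 0.086) and 0.25 (adjusted p = 0.054). The ex vivo difference missed the threshold without WT ex vivo replicate 2 (adjusted p = 0.059) or 3 (0.088) or Ikzf1-cko ex vivo replicate 1 (0.14).

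The intronic OCR_3841 (chr1:95944563-95944928), printed above, had the largest genotype difference of the 60 tested members in both states. It measured 26.3, 34 and 26.1 FPKM in ex vivo WT, 50.7, 52.2 and 44.4 FPKM in ex vivo Ikzf1-cko, 17.2, 17.5 and 18.7 FPKM in stimulated WT and 42.7, 39.8 and 42.2 FPKM in stimulated Ikzf1-cko. None of the 4 groups overlapped another, in the rising order stimulated WT, ex vivo WT, stimulated Ikzf1-cko and ex vivo Ikzf1-cko. The genotype difference was 0.77 (standard error 0.13, adjusted p = 6.0e-05) ex vivo and 1.23 (standard error 0.16, adjusted p = 4.6e-07) after stimulation, or 0.77 and 1.07 with loess scaling (adjusted p = 3.2e-05 and 5.3e-06). Stimulation lowered it in WT (-0.70, standard error 0.17, adjusted p = 0.0014), and in Ikzf1-cko the change was -0.25 (95% interval -0.47 to -0.02, adjusted p = 0.11). The interaction of 0.46 did not pass (adjusted p = 0.17).

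The other member called after stimulation, named after its values were seen, was OCR_3845 (chr1:95952493-95952895), intergenic and 3.6 kb upstream. It measured 20.5, 21.0 and 19.6 FPKM in ex vivo WT, 32.5, 32.3 and 24.4 FPKM in ex vivo Ikzf1-cko, 18.1, 13.1 and 22.2 FPKM in stimulated WT and 38.7, 36.4 and 43.3 FPKM in stimulated Ikzf1-cko. All Ikzf1-cko libraries were above all WT libraries. The genotype difference was 1.16 (standard error 0.17, adjusted p = 2.6e-06) after stimulation, or 1.05 with loess scaling (adjusted p = 2.2e-05). Ex vivo it was 0.55 (adjusted p = 0.010), and the threshold was missed without Ikzf1-cko ex vivo replicate 1 (adjusted p = 0.052) or 2 (0.056). Farther upstream, by 22.4 kb, OCR_3846 (chr1:95971011-95972060) measured 31.3, 32.3 and 31.2 FPKM in ex vivo WT, 46.3, 48.6 and 40.5 FPKM in ex vivo Ikzf1-cko, 24.1, 32.2 and 25.7 FPKM in stimulated WT and 54.3, 48.8 and 52.5 FPKM in stimulated Ikzf1-cko. Again all Ikzf1-cko libraries lay above all WT libraries, with differences of 0.51 (standard error 0.09, adjusted p = 1.6e-04) ex vivo and 0.93 (standard error 0.10, adjusted p = 4.1e-08) after stimulation, or 0.39 and 0.58 with loess scaling (adjusted p = 8.1e-04 and 1.6e-05).

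The strongest of all 75 members was OCR_3838 (chr1:95931459-95932659), intergenic, 17.1 kb downstream of the Pdcd1 start and nearest to the start of Neu4. It measured 80.9, 81.7 and 82.3 FPKM in ex vivo WT, 103, 98.2 and 95.2 FPKM in ex vivo Ikzf1-cko, 50.1, 54.2 and 56.1 FPKM in stimulated WT and 88.0, 78.0 and 91.1 FPKM in stimulated Ikzf1-cko. Stimulated WT lay far below the other groups. The genotype difference was 0.27 (adjusted p = 0.0041) ex vivo and 0.68 (standard error 0.07, adjusted p = 4.3e-08) after stimulation, or 0.11 (adjusted p = 0.21) and 0.28 (adjusted p = 0.0016) with loess scaling. The WT response was -0.61 (standard error 0.08, adjusted p = 2.0e-07), or -0.33 with loess scaling (adjusted p = 3.0e-04), and the Ikzf1-cko response -0.20 (adjusted p = 0.022), which missed the threshold without Ikzf1-cko ex vivo replicate 1 (adjusted p = 0.11) or 2 (0.061) or stimulated Ikzf1-cko replicate 2 (0.16). Upstream by 24.4 kb, OCR_3847 (chr1:95973355-95973735) rose on stimulation in Ikzf1-cko (from 16.8, 14.9 and 15.0 to 28.5, 22.4 and 24.5 FPKM, log2 change 0.68, adjusted p = 0.0021). In WT it measured 19.7, 15.3 and 15.9 FPKM ex vivo and 14.8, 21.6 and 26.7 FPKM after stimulation, a change of 0.31 (95% interval -0.09 to 0.71). All 5 regions over the Pdcd1 gene were higher in Ikzf1-cko at the FDR in both states, with a median of 0.59 ex vivo and 0.90 after stimulation, and 4 of the 5 fell on stimulation in WT. With loess scaling 4 of the 5 were higher ex vivo, 3 of the 5 after stimulation, and 2 of the 5 fell in WT. Of the 4 that fell, OCR_3839 (-0.46, adjusted p = 0.036) missed the threshold without any 1 of the WT ex vivo replicates (adjusted p = 0.054 to 0.090) or without stimulated WT replicate 2 (0.061) or 3 (0.18), and OCR_3842 (-0.40, adjusted p = 0.018) without WT ex vivo replicate 2 (0.14) or stimulated WT replicate 1 (0.18).

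Summed over all regions of a gene, whether tested or not, accessibility in CPM at Pdcd1 was 271, 285 and 277 in ex vivo WT, 358, 358 and 325 in ex vivo Ikzf1-cko, a mean of 213 (SD 11.9) in stimulated WT and 341, 318 and 353 in stimulated Ikzf1-cko. The genotypes did not overlap in either state, with 1.25 times the WT mean in Ikzf1-cko ex vivo and 1.58 times after stimulation. At Bcl6 these ratios were 1.14 and 1.38, again without overlap. At Prdm1 the ratio was 0.936 ex vivo, with overlap, and 1.21 after stimulation, without overlap, and at Cxcr5 it was 0.935 and 0.840, without overlap. The stimulated Cxcr5 sum in WT rested on replicate 2, with 257 against 203 and 199 in the other libraries, and the log2 ratio between the stimulated genotypes was -0.25 with it and -0.12 without it. In each comparison without overlap the exact two-sided permutation test gave p = 0.10, the smallest p that 3 against 3 libraries allow. With TMM scaling the ex vivo log2 ratio at Cxcr5 and that at Prdm1 both turned from -0.10 to 0.02.

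**Figure D5:**
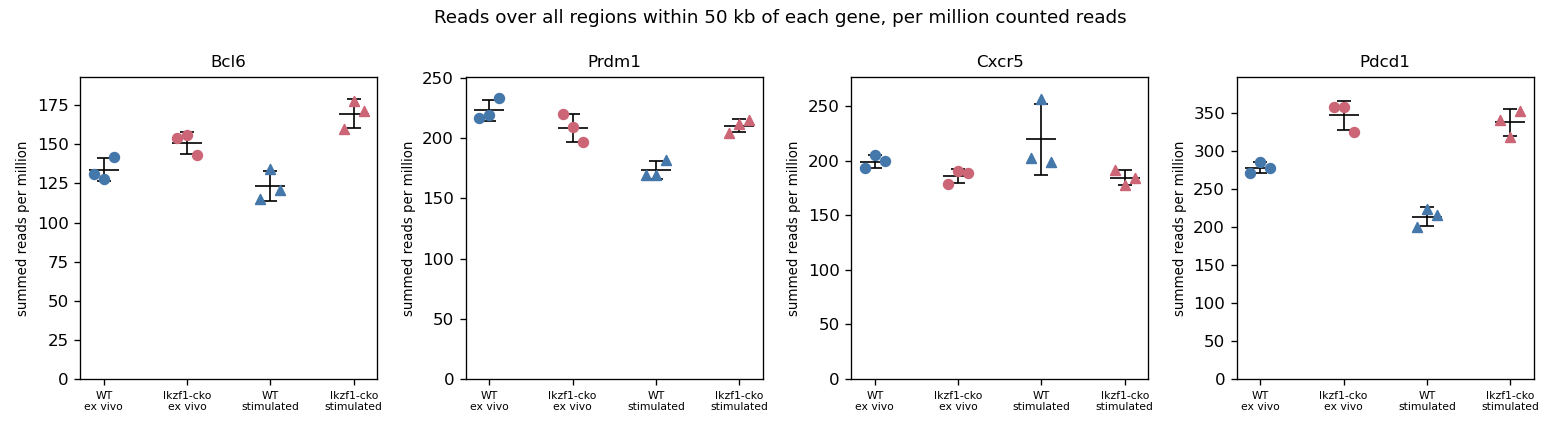
Reads summed over all regions within 50 kb of each gene, in CPM, in the 12 libraries. Blue marks WT, red Ikzf1-cko, circles ex vivo and triangles stimulated libraries, and black bars are the mean ± SD of 3 libraries. At Pdcd1 the Ikzf1-cko libraries (318 to 358) lie above the WT libraries in both states.

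Start sites of other genes of the follicular program were read in the same fit. Of 22 genes that promote it, 20 had a tested region at the start site. Ex vivo, 2 of the 20 were higher in Ikzf1-cko, Cxcr4 (0.36, adjusted p = 0.0090), a chemokine receptor, and Nfatc1 (0.40, adjusted p = 0.025), a transcription factor of calcium signaling. Pou2af1, a B cell coactivator also used by follicular T cells, was lower, with 36.1, 36.5 and 40.5 FPKM in WT and 27.8, 25.8 and 23.4 FPKM in Ikzf1-cko (log2 difference -0.55, standard error 0.09, adjusted p = 7.9e-05). The ex vivo shares of the list were thus 10.0% higher and 5.0% lower, against 16.9% and 5.59% of all tested start sites. After stimulation, 12 of the 20 were higher in Ikzf1-cko and 1 lower with library totals, but 3 were higher and 5 lower with loess scaling, so the direction of the list depended on the scaling (median 0.32 against 0.00). Over all 11941 start sites the same scalings gave 43.5% higher and 15.5% lower, and 9.21% higher and 24.5% lower.

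The largest response difference in the list was at Icos, which encodes a costimulatory receptor needed by follicular T cells. Its start site measured 36.2, 44.9 and 50.5 FPKM in ex vivo WT, 38.8, 36.3 and 31.5 FPKM in ex vivo Ikzf1-cko, 21.5, 26.3 and 18.8 FPKM in stimulated WT and 36.7, 36.8 and 44.5 FPKM in stimulated Ikzf1-cko. Stimulated WT lay below the other 3 groups. Stimulation lowered it in WT (-1.0, standard error 0.16, adjusted p = 1.1e-05), or by -0.76 with loess scaling (adjusted p = 1.8e-04). The genotypes differed after stimulation by 0.83 (adjusted p = 7.7e-05), or 0.63 with loess scaling (adjusted p = 0.0015). The interaction was 1.15 (standard error 0.20, adjusted p = 7.3e-04), or 0.97 with loess scaling (adjusted p = 0.0046). Sh2d1a, which encodes the adaptor SAP (interaction 0.75, adjusted p = 0.032), and Cd200, a surface glycoprotein of follicular helper cells (interaction 0.69, adjusted p = 0.0092), were the other 2 of the 20 past the FDR for the interaction, and both missed it with loess scaling (adjusted p = 0.11 and 0.059). For the interaction, 15.0% of the list was thus higher and 0.0% lower, against 9.85% and 1.37% of all 11941 start sites. With loess scaling the shares were 5.0% and 0.0%, against 1.42% and 3.28%.

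Of 12 genes that oppose the program or mark non-follicular cells, all 12 had a tested region at the start site. Ex vivo, Il7r, which encodes the interleukin-7 receptor, was higher in Ikzf1-cko (0.42, adjusted p = 0.0098) and Ccr7, a receptor that keeps cells in the T cell zone, was lower (-0.29, adjusted p = 0.016). Il7r measured 32.9, 36.6 and 40.5 FPKM in ex vivo WT, 56.3, 52.0 and 39.9 FPKM in ex vivo Ikzf1-cko, 16.4, 18.5 and 17.4 FPKM in stimulated WT and 44.2, 42.3 and 45.3 FPKM in stimulated Ikzf1-cko. The genotypes overlapped ex vivo and were far apart after stimulation, by 1.33 (standard error 0.15, adjusted p = 6.6e-08), or 1.09 with loess scaling (adjusted p = 9.0e-07). The interaction at Il7r was 0.91 (standard error 0.19, adjusted p = 0.0036), or 0.72 with loess scaling (adjusted p = 0.022). That of Gpr183, a receptor that guides cells to the follicle border, was 0.71 (adjusted p = 0.031, or 0.098 with loess scaling). After stimulation, 5 of the 12 were higher and 2 lower in Ikzf1-cko with library totals, and 2 higher and 5 lower with loess scaling. The shares with library totals, 41.7% and 16.7%, were near the 43.5% and 15.5% of all 11941 start sites. With loess scaling they were 16.7% and 41.7%, against 9.21% and 24.5%. Ex vivo, 8.33% of the list was higher and 8.33% lower, against 16.9% and 5.59%. For the interaction, 16.7% was higher and 0.0% lower, against 9.85% and 1.37%.

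The start sites whose level moved most like those of the 4 genes over the 12 libraries were found by Pearson's r among the 11941 tested start-site regions. For Bcl6 these were Ube2l6 (r = 0.984), Rrm2b (0.978) and Malt1 (0.978), and for Prdm1 they were Gadd45a (0.979), Zfp51 (0.978) and 4930534B04Rik (0.976). Pdcd1 was most like Ubl3 (0.977), Sipa1l1 (0.963) and a start shared by Ccdc109a and Gm10322 (0.960), and Cxcr5 like Lrrc32 (0.948), Ptprc (0.939) and Laptm5 (0.939). Lrrc32, which encodes the Treg surface protein GARP, had a mean of 24.2 FPKM in both genotypes ex vivo, and of 15.1 FPKM in WT and 13.4 FPKM in Ikzf1-cko after stimulation. The 12 points of each r share libraries and fall into 4 groups, so these values are a description.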

How the data were processed

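ATAC-seq libraries of sorted Treg, 3 for each of 4 groups, were read from 1 table of 118680 regions in mm9, the build named in the labels. Per the labels and the study's methods, the authors used bcl2fastq, aligned reads with Bowtie2, removed duplicates, called peaks per replicate with MACS2 and merged peaks found in at least 2 replicates. The methods print a human build, hg19, where the labels give mm9, and regions were placed on mm9. The authors deposited read counts per region with FPKM, which is the count over the region's length and the library's total, and with log2 values of FPKM, which were not used here. A second deposited table holds only the authors' own comparisons (fold change, p-value and nearest start site) and was not used.

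Counts were fitted with edgeR 4.0.16 (quasi-likelihood, 12 libraries in 1 model) on the 69957 regions that reached 3.6 CPM in 3 or more libraries, scaled by library totals. Calls needed FDR under 0.05 (Benjamini-Hochberg) together with a log2 change beyond 1 either way, as in the study. The authors scaled by background bins, which were not used here. Each group's replicates are biological per the methods. Replicate numbers were not used to pair samples in the main fit. The methods state that sorted cells were split into stimulated and unstimulated parts, so ex vivo and stimulated libraries of a genotype may share mice. Correlations of deviations between same-numbered libraries ran from -0.36 to 0.28, and between differently numbered ones from -0.38 to 0.4. With 3 libraries per group, these correlations cannot decide whether samples were paired. The fit was tested on simulated counts, drawn from a mean profile shared by all libraries. There, 200 regions were changed by a log2 of 2 between ex vivo genotypes. It recovered 198 of them and made 5 false calls. The simulation did not hold the looser replicates and weaker strong regions of the stimulated WT libraries. It therefore cannot speak to results that rest on that group. Alternatives were TMM, loess offsets, DESeq2 1.42.0, limma 3.58.1, no CPM filter, replicate blocks and leaving out each library. Named for each gene were the start-site region, the 3 highest regions, the smallest p in each of 5 comparisons and regions called ex vivo or in the Ikzf1-cko response. The regions OCR_112892, OCR_112895, OCR_112906, OCR_112907, OCR_112908, OCR_3839 and OCR_3842 fall outside this rule and were picked from the results. The members and lists were chosen with earlier results of these data known, and the scaling alternatives for the pathway lists after seeing the data. GENCODE M1 gene models and the mm9 genome gave annotation and sequence, which was searched on both strands. Some marker results are not reported here.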

Additional observations from a re-analysis of the deposited data

Results flagged for a closer look

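In 5 regions the effect of stimulation differed between the genotypes by the interaction term of the edgeR fit, in each case higher in Ikzf1-cko than in WT. At OCR_44744, upstream of Bcl6, the log2 difference between responses was 1.14, and it also passed the FDR with TMM, loess scaling, DESeq2, limma and without any 1 library. At OCR_11101, in the Prdm1 intron, it was 0.79, and it passed under the same alternatives. The Prdm1 start site OCR_11104 had a difference of 0.52 and the region OCR_3838 downstream of Pdcd1 one of 0.41, and both missed the FDR with TMM and with loess scaling. At OCR_11108, upstream of Prdm1, it was 0.39 (adjusted p = 0.044 by edgeR), and it missed the FDR without any 1 of 10 of the 12 libraries (adjusted p = 0.056 to 0.11), with TMM (0.16), loess scaling (0.44), DESeq2 (0.13), no CPM filter (0.062) and both replicate blocks (0.050 and 0.075).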

How the results depend on the processing

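The count of called members between stimulated genotypes, 2, was 3 with TMM, 3 with loess scaling, 6 with DESeq2 and 2 to 5 without any 1 library. With each of TMM, loess scaling and DESeq2, 1 of the called members lay at Prdm1. In the WT response the count of 1 was 2 with loess scaling, 3 without a CPM filter, 0 with limma and 0 with DESeq2, and 1 to 2 without any 1 library, and the count at the FDR alone fell from 25 to 14 with loess scaling. In the Ikzf1-cko response the count of 1 was 3 without a CPM filter and 1 to 2 without any 1 library, and the count of 16 at the FDR alone was 10 with DESeq2. For the interaction, the count of 1 was 0 with loess scaling and 1 to 2 without any 1 library, and the 5 members at the FDR alone were 2 with TMM, 2 with loess scaling and 3 to 6 without any 1 library. With TMM scaling the ex vivo log2 ratios of the summed reads were 0.30 at Bcl6, 0.02 at Prdm1, 0.02 at Cxcr5 (turned from -0.10) and 0.44 at Pdcd1. The sign also turned for the ex vivo genotype difference at OCR_11104 (0.03 with TMM, 0.01 with DESeq2) and OCR_112902 (-0.00 without Ikzf1-cko ex vivo replicate 2, and up to 0.14 without any other library), and for the stimulated one at OCR_11108 (-0.05 with loess scaling) and OCR_112902 (0.04 with TMM, 0.07 with DESeq2, 0.08 without stimulated WT replicate 2). It turned as well for the WT response at OCR_3843 (0.20 with loess scaling) and the Ikzf1-cko response at OCR_44741 (-0.00 with TMM, -0.02 without stimulated Ikzf1-cko replicate 2, and up to 0.12 without any other library). The cause of these changes was not tested. Of 1206 alternatives to 59 differences in named regions, 1120 kept their direction and their side of the FDR, 71 missed it, 5 newly passed it and 10 changed sign. Only 28 of the 59 differences kept both under every alternative. The alternatives include fits that left out a library of a group outside the comparison.

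With the replicate number as a block, members at the FDR alone numbered 15, 29, 25, 16 and 4 in the ex vivo genotype, stimulated genotype, WT, Ikzf1-cko and interaction comparisons, and called members 0, 2, 1, 1 and 1. A block within genotype gave 25, 16 and 4 in the last 3. Deviations of same-numbered libraries correlated from -0.36 to 0.28, and those of differently numbered libraries from -0.38 to 0.40.

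The 15 members under the CPM minimum had at most 54 reads in any library. Without that minimum, 4 of them were called: OCR_44732 at Bcl6 (1.17, adjusted p = 0.0062) and OCR_11090 at Prdm1 (1.14, adjusted p = 0.019) rose in WT, and OCR_44747 at Bcl6 (1.51, adjusted p = 0.0050) and OCR_11096 at Prdm1 (1.22, adjusted p = 0.0063) rose in Ikzf1-cko on stimulation. These 4 were named after their values were seen.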
